A study of Mus musculus with 14 samples.

Results

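ChIP-seq peaks of the coactivator CRTC2, of the NF-κB subunit p65 and of acetylated lysine 27 of histone H3 (H3AcK27) were examined at 8 genes of insulin signalling and glucose uptake, Insr, Irs1, Irs2, Pik3r1, Akt2, Slc2a1, Slc2a4 and Pck1, out of 21853 protein-coding genes of the mouse annotation (GRCm38, the assembly that the submitters call mm10). The genes were taken by name, and every peak in the gene body or within 50 kb of it was collected. A promoter was the stretch from 1000 bp upstream to 100 bp downstream of any annotated start site. The cells were 3T3-L1, a clonal mouse preadipocyte line that can be turned into adipocytes by a hormone cocktail, and all groups shared that differentiation. The methods give that differentiation as lasting a few days. Cells were left untreated (control) or treated for 1 h with forskolin (FSK, 10 µM), which activates adenylyl cyclase, with TNFα, or with the combination of FSK and TNFα. Each antibody gave 1 peak list per treatment, 12 lists in all, with no replicate library, so no spread between samples could be estimated and no test was run. Values are therefore set side by side, and counting intervals cover counting error only.

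Insulin binds its receptor, a tyrosine kinase encoded by Insr, which phosphorylates the adaptors IRS1 and IRS2. These recruit PI 3-kinase through its regulatory subunit (Pik3r1), and the kinase AKT2 then moves the GLUT4 transporter (Slc2a4) to the surface of adipocytes, whereas GLUT1 (Slc2a1) carries basal glucose uptake. Pck1 encodes the cytosolic phosphoenolpyruvate carboxykinase of glyceroneogenesis in fat and of gluconeogenesis in liver, where insulin lowers its transcription. CRTC2 is a coactivator of CREB, which binds cAMP response elements (CREs) with the core TGACG. The p65 protein is the main activating subunit of NF-κB, and H3AcK27 marks active promoters and enhancers.

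The sequences on which the results below turn are shown first, 5′ to 3′, with coordinates on GRCm38. Motif searches covered both strands, so that a core reads TGACG or CGTCA. The first is the CRTC2 locus of highest score in the window of Irs2, upstream of its start site (chr8:11008812-11009023, minus strand), which holds no TGACG core and no AP-1 letters.
Irs2 promoter: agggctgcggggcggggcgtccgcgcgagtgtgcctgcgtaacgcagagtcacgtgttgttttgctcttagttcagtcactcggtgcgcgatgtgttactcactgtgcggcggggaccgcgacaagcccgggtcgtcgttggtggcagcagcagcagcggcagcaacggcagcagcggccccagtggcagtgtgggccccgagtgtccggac
The next is the part of the Irs1 promoter locus that lies upstream of the transcribed region (chr1:82291417-82291651, minus strand), with the CRE core in capitals.
Irs1 promoter: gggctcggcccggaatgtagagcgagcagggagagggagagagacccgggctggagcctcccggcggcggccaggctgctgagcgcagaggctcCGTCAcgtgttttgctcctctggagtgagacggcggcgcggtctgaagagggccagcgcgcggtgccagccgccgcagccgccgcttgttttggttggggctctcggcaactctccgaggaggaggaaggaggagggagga
An intronic locus of Slc2a1 (chr4:119125546-119125794, plus strand) held the highest CRTC2 score in the window of that gene, and the capitals mark an AP-1 match (TGAGTCA) and a pair of CRE cores.
Slc2a1 intron: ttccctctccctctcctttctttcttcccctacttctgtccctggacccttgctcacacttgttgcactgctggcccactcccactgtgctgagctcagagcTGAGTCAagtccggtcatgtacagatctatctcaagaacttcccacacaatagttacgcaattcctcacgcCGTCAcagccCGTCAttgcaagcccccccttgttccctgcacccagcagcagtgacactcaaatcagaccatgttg
For loci over untranslated exons only the CRE core with its flanks is shown, from the start sites of Insr (chr8:3279556-3279584, minus strand) and Slc2a1 (chr4:119108816-119108844, plus strand) and from the strongest CRTC2 locus in the window of Irs1 (chr1:82316587-82316615, minus strand), which is nearest to the start site of its neighbour Rhbdd1.
Insr start site: cgcgggcccagcTGACGggctgcgttgtt
Slc2a1 start site: ttgcttgtagagTGACGatctgagctacg
Irs1 upstream: cccgcgctcgtgCGTCActacgtctggac
The p65 locus downstream of Pik3r1 (chr13:101655939-101656106, minus strand) was the only one near these genes called in both lists with TNFα. The capitals mark a pair of matches to the degenerate NF-κB consensus. A CRE core (cgtca) between them is left in small letters.
Pik3r1 downstream: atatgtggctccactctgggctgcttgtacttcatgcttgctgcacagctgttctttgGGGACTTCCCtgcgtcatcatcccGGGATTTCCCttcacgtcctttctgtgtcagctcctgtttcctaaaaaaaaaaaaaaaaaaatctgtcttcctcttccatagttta
The Pck1 promoter (chr2:173152823-173153047, plus strand, from the RefSeq promoter table), with a CRE core in capitals, is given because no list had a peak there.
Pck1 promoter: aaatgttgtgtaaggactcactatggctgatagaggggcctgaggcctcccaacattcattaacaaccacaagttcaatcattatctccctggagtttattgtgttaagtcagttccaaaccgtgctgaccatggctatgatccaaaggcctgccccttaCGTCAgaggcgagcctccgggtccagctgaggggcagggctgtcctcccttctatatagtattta

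The 12 libraries held 9832884 to 31807394 tags, and the shallowest was the H3AcK27 library of FSK-treated cells. The CRTC2 lists held 5188 peaks without treatment, 11749 after FSK, 19527 after TNFα and 14171 after both, and the p65 lists 214, 2969, 2404 and 4221 in the same order. In the 3 p65 libraries of treated cells 18.3% to 23.9% of tags were left when each position was counted once, against 69.8% in the control p65 library and 35.6% to 56.6% in the CRTC2 libraries. Repeated tags weigh more in the p65 libraries of treated cells, and their part in the p65 results was not tested. As a check of the labelled cell type, H3AcK27 covered the promoters of 3 of 11 adipocyte genes in all 4 lists (Fabp4, Pparg and Lpl) and those of the other 8, among them Adipoq, Cebpa and Plin1, in none. Of 4 preadipocyte genes, 2 were covered in all 4 lists (Pdgfra and Thy1) and the other 2 in some, and no macrophage, endothelial, hepatocyte or muscle gene was covered in all 4, although the macrophage genes Csf1r and Cd68 and the endothelial gene Cdh5 were covered in 3 lists each. The other 3 of 5 macrophage genes (Adgre1, Ptprc and Itgam), 2 of 4 endothelial, all 4 hepatocyte and 3 of 4 muscle genes were covered in none.

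CRTC2 was called at the promoters of 2 of the 8 genes without treatment, 6 after FSK, 6 after TNFα and 4 after both. Over all protein-coding genes the shares with a CRTC2 promoter peak were 11.8% without treatment, 27.4% after FSK, 39.9% after TNFα and 29.1% after FSK and TNFα. Irs2 and Slc2a1 had a promoter peak in every list, a pattern found at 8.32% of all genes. Insr and Pik3r1 had one in each treated list and none without treatment, as did 12.5% of all genes. Irs1 and Akt2 had one after FSK and after TNFα given singly, a pattern whose share of all genes was not counted. Slc2a4 and Pck1 had none in any list, as was found at 56.9% of all genes. The plot of CRTC2 promoter tags shows these 4 patterns.

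**Figure D1:**
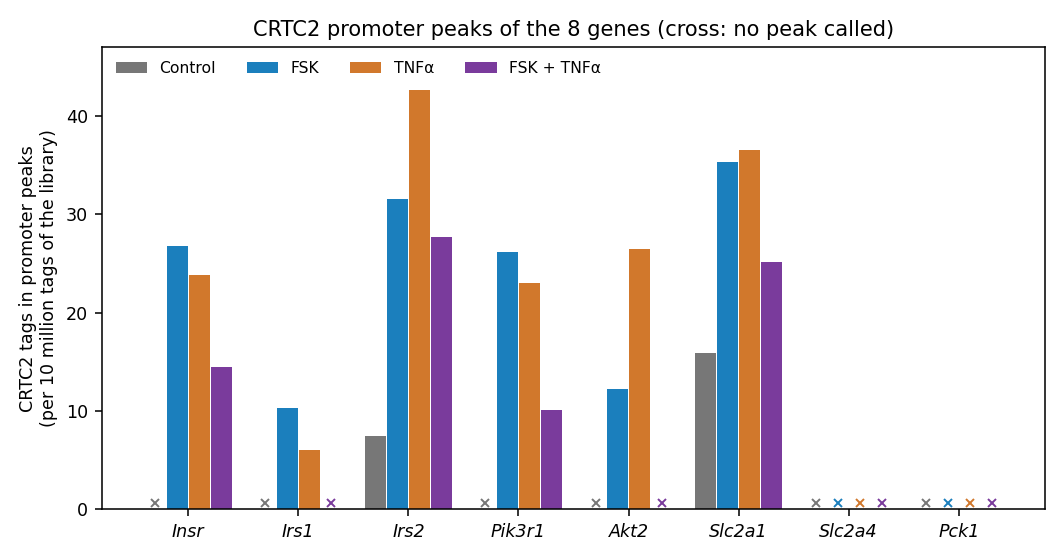
CRTC2 tags in promoter peaks, per 10000000 tags of the library, for the 8 genes (x axis) and 4 treatments (colours), 1 library each, so without error bars. A cross stands where no promoter peak was called, at Slc2a4 and Pck1 in all 4 lists; the highest bar is Irs2 after TNFα, at 42.7.

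At Insr, the receptor gene (ENSMUSG00000005534, chr8:3122061-3279617, minus strand), the CRTC2 peak lay over the 5′ untranslated exon at the upstream start site and held no call without treatment, 26.8 normalized tags (scaled to 10000000 tags of the library) after FSK, 23.8 after TNFα and 14.5 after both. The peak score, in which each position counts once, was 20 after FSK (95% Poisson interval 12.2 to 30.9), 23 after TNFα (14.6 to 34.5) and 18 after both (10.7 to 28.4). The 3 intervals overlapped. The only other CRTC2 peak in the 257557 bp of its window was intronic, after TNFα alone, at 6.80 normalized tags. No p65 peak was called within 50 kb of Insr in any list.

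Irs1 (ENSMUSG00000055980, chr1:82233101-82291416, minus strand) encodes the adaptor that carries most insulin signal to GLUT4 in adipocytes. Its promoter peaks were weak, with 10.3 normalized tags and a score of 9 after FSK and 6.04 normalized tags and a score of 8 after TNFα, the lowest score in that list. By promoter tags Irs1 stood at place 4984 of 5994 genes after FSK and 8634 of 8723 after TNFα. With FSK and TNFα together the nearest CRTC2 peak lay downstream of the promoter limit, over the 5′ untranslated exon, with 12.3 normalized tags, against 14.4 there after TNFα alone. The strongest CRTC2 peak in the window, 25190 bp upstream and nearest to Rhbdd1, had 24.3 normalized tags after FSK and 20.8 after TNFα, and was called in neither of the other lists.

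At Irs2 (ENSMUSG00000038894, chr8:10984681-11008458, minus strand), the second adaptor and a known cAMP-responsive gene in liver and islets, the promoter locus 459 bp upstream of the start site held 7.41 normalized tags without treatment, 31.6 after FSK, 42.7 after TNFα and 27.7 after both. The control value was the lowest of the 4 and stood at place 2412 of 2582 genes with a promoter peak in its list. The scores were 8 without treatment (95% Poisson interval 3.45 to 15.8), 31 after FSK (21.1 to 44.0), 33 after TNFα (22.7 to 46.3) and 32 after both (21.9 to 45.2). These counts are not scaled for depth, and the control library held 7812000 tags when each position was counted once, against 9304000 after FSK, 9414000 after TNFα and 13026000 after both. Relative to control, the normalized tags were 4.26 times higher after FSK (95% counting interval 1.92 to 10.7), 5.76 times after TNFα (2.61 to 14.4) and 3.74 times after both (1.69 to 9.39). Of the CRTC2 loci called in both lists of each pair, 32.3% were at least 2-fold higher after FSK, 54.1% after TNFα and 29.2% after both, and their median ratios were 1.62, 2.10 and 1.52.

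The size of the difference at Irs2 depended on what the tags were divided by. With the score taken over tags counted once per position, the ratios to control were 3.25 after FSK, 3.42 after TNFα and 2.40 after both. Taken as a share of all tags in the listed peaks, they were 1.37, 1.16 and 1.13, since the treated lists were longer and held more tags in all. On that scale the median over all shared loci was 0.52 after FSK, 0.42 after TNFα and 0.46 after both. A further CRTC2 locus 62184 bp downstream of the Irs2 start site was called in the 3 treated lists, with 11.6 normalized tags for FSK, 20.4 for TNFα and 9.75 for both.

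At Pik3r1 (ENSMUSG00000041417, chr13:101680563-101768217, minus strand), the regulatory subunit of PI 3-kinase, the CRTC2 peak lay over the 5′ untranslated exon at the first start site, with 26.2 normalized tags after FSK, 23.0 after TNFα and 10.1 after both. Its scores differed less, at 23, 19 and 20. With both agents the normalized tags were 0.39 of the FSK value (95% counting interval 0.20 to 0.73) and the score over tags counted once per position 0.62 of it. The interval takes its width from the scores and its place from the normalized tags, in which repeated tags count. It therefore does not show whether the difference exceeds counting error. The Poisson intervals of the scores, not scaled for depth, overlapped, at 14.6 to 34.5 after FSK and 12.2 to 30.9 after both. The 142.27-fold enrichment that the FSK list gives for this peak rests on 0.3 scaled input tags. The 1 CRTC2 peak of control cells in the Pik3r1 window was intronic, with 12.2 normalized tags, and was called in no treated list.

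Akt2 (ENSMUSG00000004056, chr7:27591552-27640826, plus strand), the insulin-responsive AKT kinase, has 11 annotated start sites. The FSK list had a peak of 12.2 normalized tags 125 bp upstream of the first, and the TNFα list had peaks of 14.4 and 12.1 normalized tags in the following intron, at other positions. Their scores of 8 to 10 were at or near the lowest of their lists (9 after FSK and 8 after TNFα). The lowest score in the list after both agents, where Akt2 and Irs1 had no promoter peak, was 10. The part of that limit in the missing calls was not tested. By summed promoter tags Akt2 stood at place 4306 of 5994 genes after FSK and, with both peaks together at 26.5, at place 3009 of 8723 after TNFα.

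At Slc2a1 (ENSMUSG00000028645, chr4:119108711-119137983, plus strand), the basal glucose transporter GLUT1, the start-site locus held 15.9 normalized tags without treatment, 35.3 after FSK, 36.6 after TNFα and 25.2 after both. Control was again the lowest of the 4 lists. The scores were 11 without treatment (95% Poisson interval 5.49 to 19.7), 30 after FSK (20.2 to 42.8), 32 after TNFα (21.9 to 45.2) and 30 after both (20.2 to 42.8). The ratios to control were 2.22 (95% counting interval 1.08 to 4.91), 2.30 (1.13 to 5.06) and 1.58 (0.77 to 3.51), the last of which includes no difference. As a share of the tags in listed peaks the same ratios were below 1, at 0.71, 0.46 and 0.48. On that scale the locus held a smaller part of the CRTC2 signal in treated cells than without treatment. The combined treatment gave 0.65 of the value of TNFα alone at Irs2 (95% counting interval 0.39 to 1.09) and 0.69 at Slc2a1 (0.40 to 1.17), and both intervals include no difference. A value above control for FSK together with one below TNFα for the combination was found at 73.5% of the 1477 CRTC2 loci called in all 4 lists.

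The intronic Slc2a1 locus shown above, 16801 bp downstream of the start site, had no CRTC2 call without treatment, 11 normalized tags after FSK, no call after TNFα and 25.5 after both agents, with scores of 13 and 33. Of the 10 CRTC2 loci nearest to any of the 8 genes and called in at least 2 lists, it was the only one with its highest normalized tags after the combined treatment. At this locus the normalized tags after both agents were 2.32 times those after FSK. Of the 6457 CRTC2 loci called in both of these lists, 3.14% were at least 2-fold higher after both agents and 4.29% at least 2-fold lower. Their median ratio was 0.96. The locus was picked from the 10 by its values, and the difference was not tested. The share of all CRTC2 loci with their highest normalized tags after the combined treatment was not counted. A neighbouring intronic locus was called after FSK (12.8 normalized tags) and TNFα (13.2) and not after both.

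Around Slc2a4 (ENSMUSG00000018566, chr11:69942539-69948188, minus strand), the insulin-responsive transporter GLUT4, the window held 3 CRTC2 peaks without treatment, 8 after FSK, 12 after TNFα and 8 after both, more in each list than that of any other of the 8 genes. None was nearest to Slc2a4. They were nearest to the start sites of its neighbours, such as Eif5a, Gps2, Elp5, Gabarap and Phf23, among 11 other protein-coding genes in the window. The strongest, after both agents, was nearest to Eif5a and had a score of 41. The closest CRTC2 loci lay 26380 bp downstream and 32106 bp upstream of a Slc2a4 start site.

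Pck1 (ENSMUSG00000027513, chr2:173153048-173159273, plus strand) had no peak of any of the 3 antibodies in any list in its body or within 50 kb. Its promoter nevertheless holds the CRE core shown above, which is present in 17.8% of 32851 RefSeq promoter windows of 250 bases. No H3AcK27 region in any of the 4 lists within 50 kb was found at 17.3% of all protein-coding genes.

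**Figure D2:**
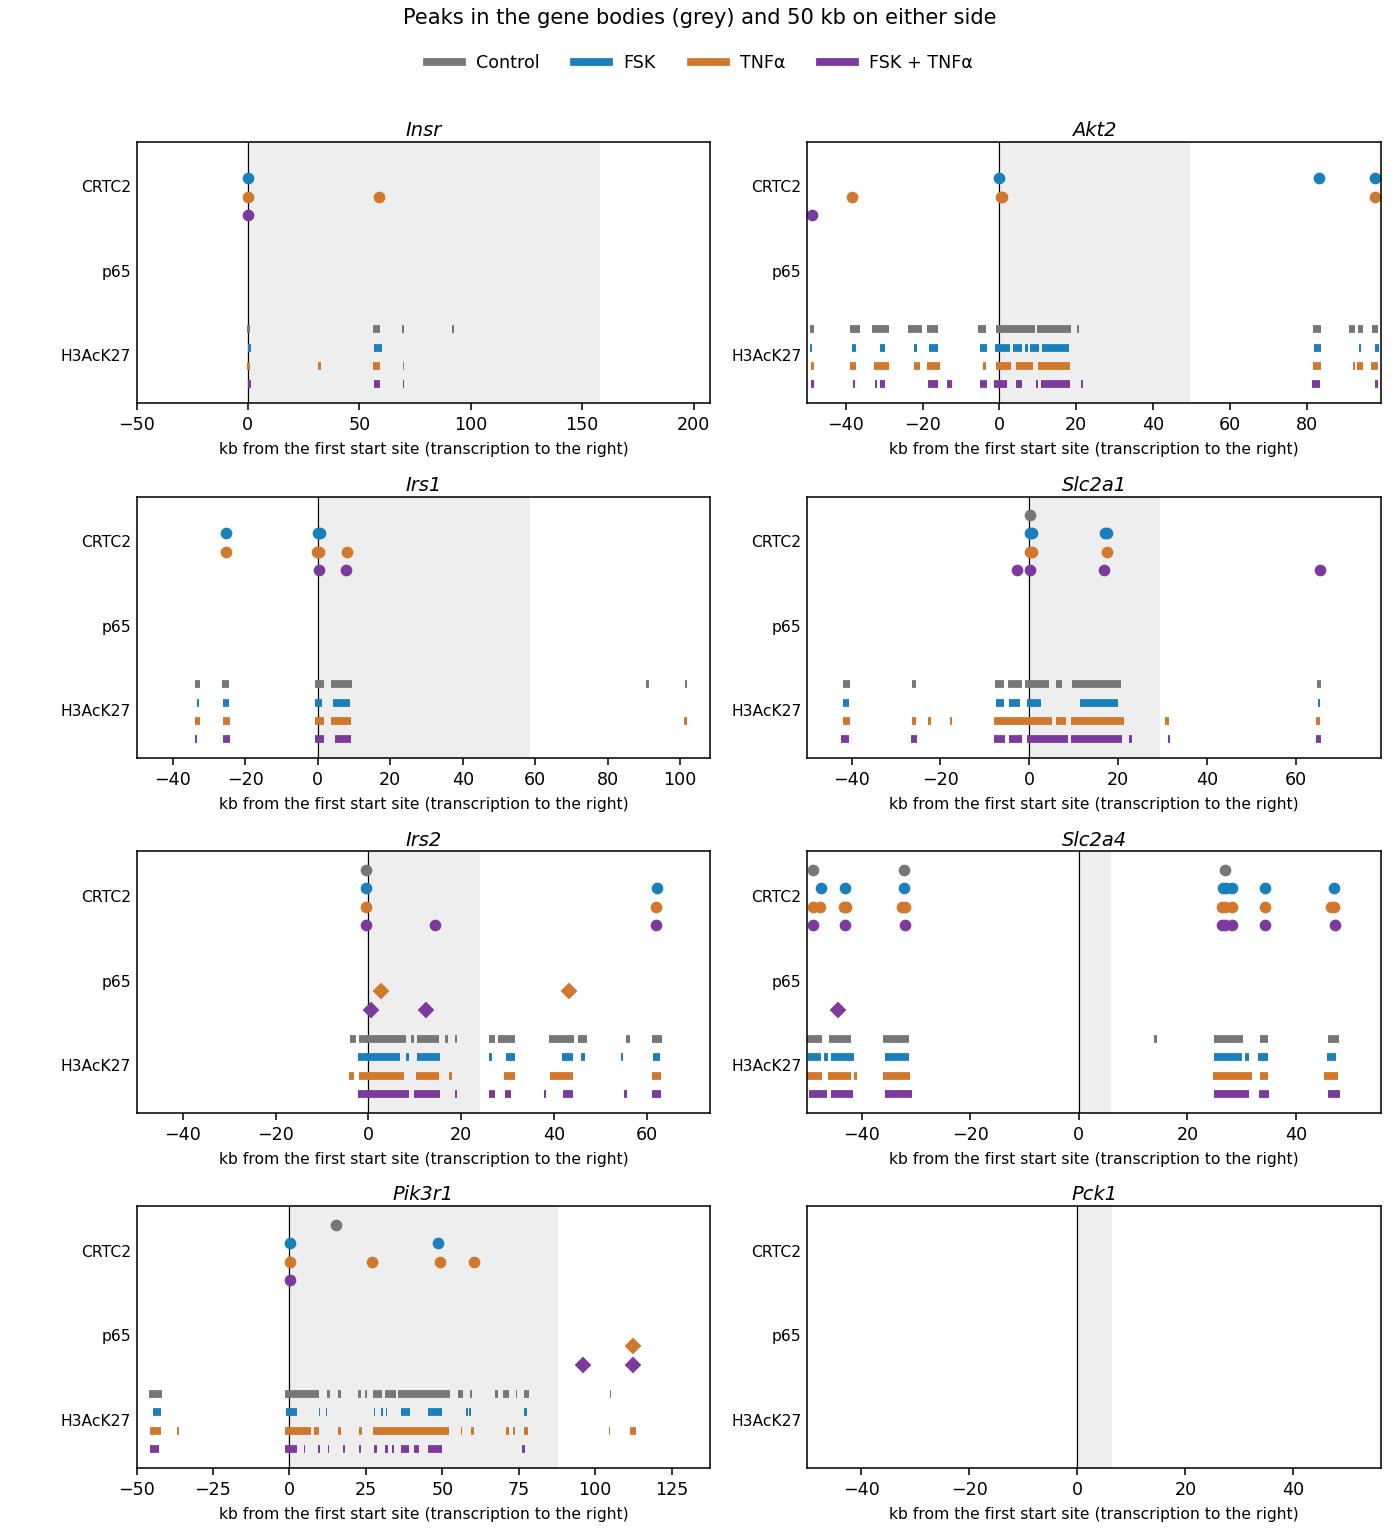
Positions of all peaks in the gene bodies (grey) and 50 kb on either side, in kb from the first start site with transcription to the right (x axis). Within each antibody the rows run from control at the top through FSK and TNFα to both agents; circles are CRTC2 peaks, diamonds p65 peaks and bars H3AcK27 regions drawn to length. CRTC2 calls gather at the start sites of 6 genes, the Slc2a4 body is empty between groups of neighbouring peaks, and the Pck1 window is empty.

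Over the whole windows, CRTC2 was called near 4 of the 8 genes without treatment and 7 in each treated list. The shares over all protein-coding genes were 39.2% without treatment, 60.4% after FSK, 70.3% after TNFα and 64.5% after both. Merged over treatments, 42 CRTC2 loci lay in the windows, and 24 of them were nearest to the start site of the gene itself. Of these 24, 8 were at promoters, 14 elsewhere in gene bodies, 1 upstream and 1 downstream. A call in 1 list only was found at 14 of the 24, against 68.8% of all 33769 CRTC2 loci. In all 4 lists 2 were called, against 4.37% of all loci. H3AcK27 regions of all 4 lists covered 21 of the 24, and the other 3, all intronic in Pik3r1, had none. The share of all CRTC2 loci covered in this way was not counted. The CRE core stood within 200 bp centred on the midpoint in 8 of the 24 loci, the full palindrome TGACGTCA in 0, AP-1 letters (TGACTCA or TGAGTCA) in 3 and the NF-κB consensus in 0. The shares over all CRTC2 loci were 17.1%, 1.52%, 10.4% and 0.255% in that order.

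No p65 peak was called at the promoter of any of the 8 genes in any list. Over all protein-coding genes a p65 promoter peak was rare too, at 0.0915% without treatment, 0.586% after FSK, 0.627% after TNFα, 1.01% after both and 2.1% in any of the 4 lists, so that 0 of 8 does not set these genes apart. In the windows, p65 was called near 0 of the 8 genes without treatment, 0 after FSK, 2 after TNFα (Irs2 and Pik3r1) and 3 after both (Irs2, Slc2a4 and Pik3r1). The shares over all genes were 1.91%, 16.9%, 14.9% and 22.3% in the same order. All p65 calls near these genes were thus in the lists with TNFα, 3 peaks after TNFα and 5 after both.

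At Irs2 the p65 peaks of the 2 lists did not coincide. With TNFα they lay over coding sequence 2684 bp downstream of the start site and 43292 bp downstream of it, each with 13.0 normalized tags and a score of 8. With both agents they lay over coding sequence at 645 bp, with 16.1 normalized tags and a score of 9, and in the intron at 12449 bp, with 8.78 and a score of 7. The downstream Pik3r1 locus was called in both lists, with 11.5 normalized tags after TNFα and 15.1 after both, and a score of 8 in each. It lies 36554 bp downstream of the nearest Pik3r1 start site and held 31 tags in each library, or 3.88 tags for each counted position. The lowest score in the p65 list was 8 after TNFα and 7 after both. The p65 peaks after TNFα were thus at the lowest score of their list, and those after both stood at 7 to 9. Of all 9469 p65 loci 96.8% were called in 1 list only.

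The degenerate NF-κB consensus, chosen after these peaks had been seen, matched the Pik3r1 locus at the pair of places shown in capitals and none of the other 6 p65 loci in the windows. It was present in 6.73% of all p65 loci and in 54.8% of the 272 called in both lists with TNFα. The narrower consensus matched none of the 7 loci, and 1% of all p65 loci. The CRE core stood in 2 of the 6 p65 loci nearest to any of the 8 genes, the downstream Pik3r1 locus among them. Over all p65 loci its share was 5.78%. A p65 peak after both agents upstream of Slc2a4 (16.6 normalized tags) was nearest to Gabarap.

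CRTC2 and p65 peaks of the same treatment overlapped at 0 loci in the windows of the 8 genes in each of the 4 treatments. Over the genome such overlaps numbered 3 without treatment, 65 after FSK, 122 after TNFα and 476 after both. The share of all genes with such a locus in the window was not counted, so that the 0 cannot be set against a background. The smallest distance between a p65 peak and a CRTC2 peak of the same treatment at these genes was 1129 bp, at Irs2 after both agents. At Pik3r1 the distances were 51679 bp after TNFα and 96049 and 112110 bp after both.

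H3AcK27 regions covered a promoter of 6 of the 8 genes in every list, and of Slc2a4 and Pck1 in none. The shares over all genes were 51.7% without treatment, 47% after FSK, 51.4% after TNFα and 49.1% after both, and 46.7% of all genes had no promoter region in any list. Within the 50 kb windows 7 of the 8 genes had a region in each list, against 81.1%, 78.8%, 80.8% and 79.8% of all genes. The regions within 50 kb of Slc2a4 were nearest to other genes, and none touched its body or promoter. The 6 genes with a CRTC2 promoter peak in at least 1 list were the 6 with H3AcK27 at the promoter. How often both occur together over all genes was not counted.

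The region over the Insr start site held 96.0 normalized tags without treatment, 74.2 after FSK, 86.2 after TNFα and 75.4 after both. That over the Irs1 start site held 242, 118, 151.6 and 111.9 in the same order, and that over Irs2 586.2, 701.7, 534.2 and 922.3. The Irs2 region was thus higher in the lists with FSK, and the Irs1 region higher without treatment than in any treated list.

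The Pik3r1 start-site region held 712.3 normalized tags over 10974 bp without treatment, 282.7 over 3607 bp after FSK, 557.5 over 8499 bp after TNFα and 291.9 over 3717 bp after both. The Slc2a1 region held 225.4 over 5492 bp without treatment, 179 over 3316 bp after FSK, 539.6 over 13030 bp after TNFα and 382.8 over 9307 bp after both. The peak caller joins neighbouring windows into regions, so that lengths differed along with the tags, and in the TNFα list it joined the Slc2a1 region with upstream ones that were separate without treatment. For Akt2, whose start sites fell in 2 or 3 regions a list, the sums were 1263 without treatment, 773.9 after FSK, 848.5 after TNFα and 684.9 after both.

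To allow for such joins, H3AcK27 was summed over the loci, merged across treatments, that touch each gene body or its upstream 1000 bp. Pik3r1 then held 2161.62 normalized tags without treatment, 864.5 after FSK, 1882.36 after TNFα and 862 after both, a ratio to control of 0.40 after FSK, 0.87 after TNFα and 0.40 after both. It was the only one of the 6 genes at or below 0.5 of control, after FSK and after both, where 13.3% and 11.9% of all genes with regions in both lists were so. As a share of tags in listed peaks the same ratios were 0.53 and 0.51, so that neither reached 0.5. With TNFα none of the 6 was, and 2.27% of all genes were. The covered length at Pik3r1 was 0.35 of control after FSK and 0.43 after both, and the tags per covered kb were 1.14 and 0.93 of control, so the lower sums went with shorter regions. The H3AcK27 library of FSK-treated cells was also the shallowest, and the part of depth in that length was not tested.

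Slc2a1 stood at the other end. Its sums were 865.9 normalized tags without treatment, 855.4 after FSK, 1282.7 after TNFα and 1317.15 after both, which is 0.99, 1.48 and 1.52 of control. A lower ratio was found at 91.9% of all genes after TNFα and at 92.6% after both. Tags per covered kb were 1.39 of control after FSK, 1.26 after TNFα and 1.31 after both, with a lower value at 82.9%, 84.2% and 79.5% of all genes. Irs2 held 821.71 normalized tags without treatment, 908.2 after FSK, 732.62 after TNFα and 1138.04 after both, with ratios of 1.11, 0.89 and 1.38.

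Irs1 had ratios of 0.59 after FSK, 0.76 after TNFα and 0.51 after both, Insr 0.69, 0.79 and 0.70, and Akt2 0.67, 0.67 and 0.56. All 3 genes were below control in each treated list, as were 72.6% of all genes after FSK, 40% after TNFα and 60% after both. Over all genes the median ratio was 0.82 after FSK, 1.06 after TNFα and 0.91 after both, and the medians of the 6 genes were 0.68, 0.83 and 0.63. As a share of tags in listed peaks the medians over all genes were 1.09, 1.03 and 1.17, above control in each treated list. At Irs1 tags per covered kb were also lower, at 0.78, 0.81 and 0.63 of control, with a lower value at 7.08%, 7.09% and 3.5% of all genes. Akt2 was lower on that scale too, at 0.80, 0.79 and 0.80 of control, with a lower value at 9.1%, 5.64% and 13.1% of all genes.

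**Figure D3:**
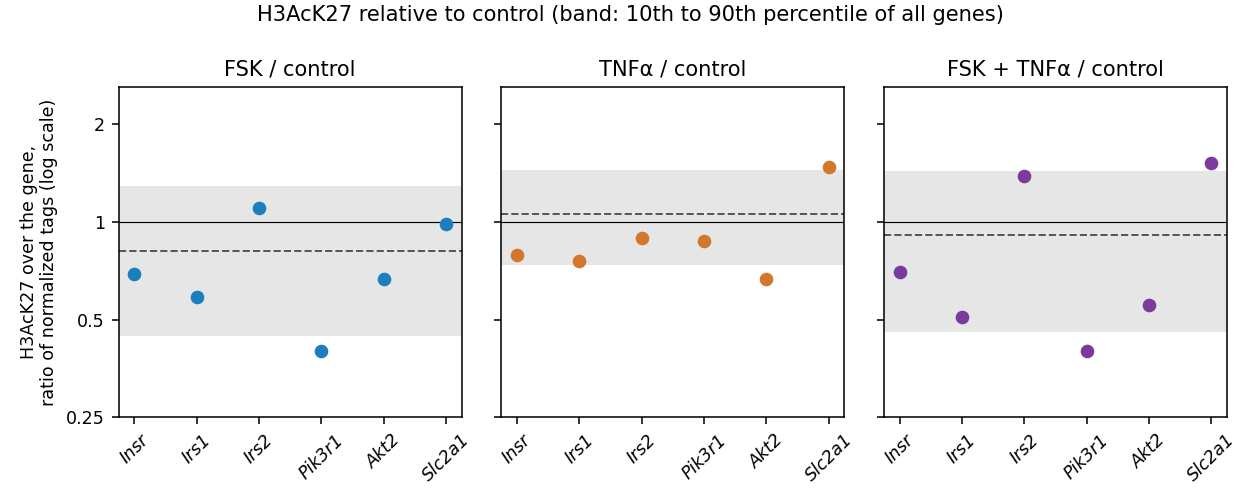
Ratio of H3AcK27 normalized tags over the gene to control, on a log scale, for the 6 genes with regions (points, 1 library per treatment). The grey band spans the 10th to the 90th percentile of all genes and the dashed line is their median (0.82, 1.06 and 0.91); Slc2a1 lies above the band after TNFα and after both agents, Pik3r1 below it after FSK and after both, and Akt2 below it after TNFα.

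The wider insulin pathway was described with 58 further genes from receptor to transporter traffic and glycolysis. A CRTC2 promoter peak was found at 12 of the 58 (20.7%) without treatment, 31 (53.4%) after FSK, 43 (74.1%) after TNFα and 33 (56.9%) after both. Each share was above that of all protein-coding genes, and so were the H3AcK27 shares, at 86.2%, 77.6%, 86.2% and 84.5%. The H3AcK27 share was lowest after FSK and equal without treatment and after TNFα, where the CRTC2 share was lowest and highest. The promoter pattern of all 4 CRTC2 lists was found at 8 of the 58 genes, against 8.32% of all genes. That of the 3 treated lists alone was found at 15, against 12.5%, and no CRTC2 promoter peak at 12, against 56.9% of all genes.

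**Figure D4:**
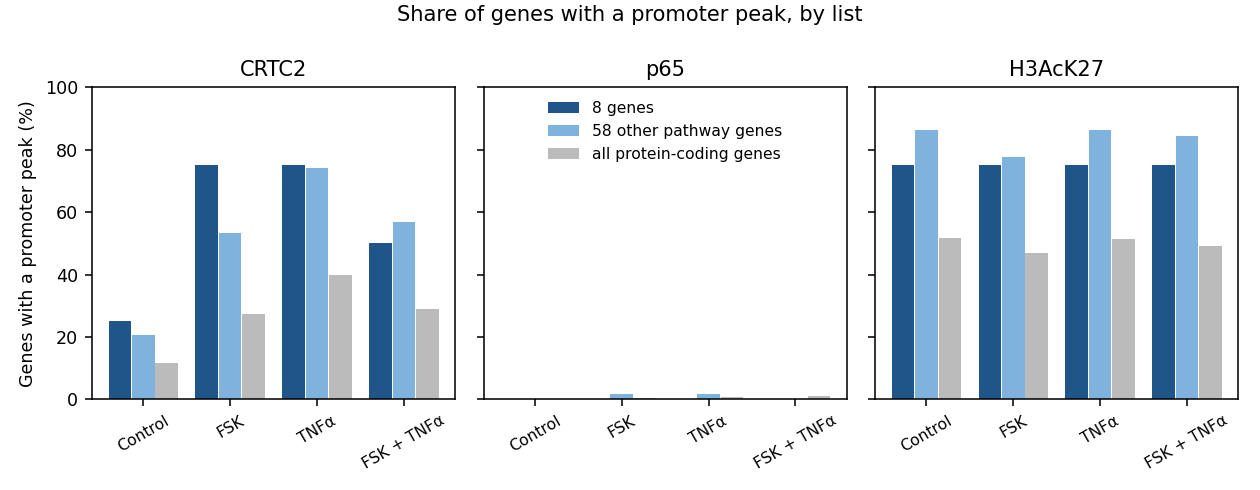
Share of genes (y axis, %) with a promoter peak of CRTC2, p65 or H3AcK27 in each list (x axis), for the 8 genes, 58 other genes of the pathway and all 21853 protein-coding genes. For CRTC2 after FSK the bars are at 75, 53.4 and 27.4%, and the p65 bars do not exceed 1.72%.

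The 5 highest-scored CRTC2 promoter peaks of that list were at Socs1, Shc1, Pik3r3, Trib1 and Eif4ebp1. Socs1, a feedback inhibitor of cytokine and insulin receptor signalling, had 7.94 normalized tags without treatment, 37.1 after FSK, 43.1 after TNFα and 64.1 after both. Its value was highest with the combined treatment, unlike those of Irs2 and Slc2a1. Shc1, an adaptor of receptor tyrosine kinases, had 19.6, 53.5, 36.3 and 45.6, and Pik3r3, another regulatory subunit of PI 3-kinase, had no call without treatment and then 24.9, 70.6 and 18.9. Trib1, a pseudokinase of the tribbles family, had 10.1, 35.3, 43.8 and 35.5, and Eif4ebp1, a translational repressor downstream of mTOR, had 24.9, 51.1 and 40.4 and no call after both. A p65 promoter peak was called at 2 of the 58 genes, Trib1 after FSK (17.2 normalized tags) and Eif4ebp1 after TNFα (14.9), against 2.1% of all genes with one in any list.

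The genes most alike in promoter tags over the 12 lists were found by the Euclidean distance of log2 values with 1 added. Efna4 and Hikeshi were nearest to Irs1 (0.73 and 0.87 log2 units), Txn2 and Epo to Irs2 (0.90 and 0.91), Tmem126b and Map3k13 to Insr (0.44 and 0.51), Rapgef6 and Tnfaip2 to Slc2a1 (0.83 and 0.89), Ywhah and Anln to Pik3r1 (0.62 and 0.84), and Mrtfa and Pcbp1 to Akt2 (0.65 and 0.74). None of the 8 genes was among another's nearest pair. Tnfaip2, for example, had CRTC2 tags of 15.9, 35.9, 54.4 and 27 and H3AcK27 tags of 273.5, 202.4, 648.6 and 557 in the order control, FSK, TNFα and both.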

How the data were processed

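ChIP-seq libraries of 3T3-L1 cells, 1 for each of 3 antibodies and 4 treatments, were analysed from the authors' 12 peak lists, and a pair of input libraries entered only through those lists. According to the submitters' processing notes reads were aligned with STAR and peaks called with HOMER on mm10, with versions not given in the sources used here. Per the file headers, CRTC2 and p65 peaks had to exceed input and the surrounding 10 kb by 4-fold, with a Poisson p-value of 0.0001 and a false discovery rate of 0.001. Untreated and TNFα libraries were set against the untreated input, and both FSK libraries against the FSK input. The deposited signal values are tags per peak scaled by the authors to 10000000 tags per library, the deposited score counts each position once, and the deposited fold is the ratio of tags to scaled input tags. The deposited p-values were not used further.

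Peaks were joined to protein-coding start sites of GENCODE release M21 (GRCm38) with an overlap of at least 1 bp, and peaks of 1 antibody overlapping across treatments were merged into loci. Counting intervals are exact Poisson intervals for scores and exact binomial (Clopper-Pearson) intervals for CRTC2 ratios, and a log-normal approximation set the limits of H3AcK27 ratios. The CRTC2 ratio intervals were computed from the scores and rescaled to the ratio of normalized tags. With 1 library per group no test was possible. The genes, the gene lists and the naming rule (all 8 genes, each promoter and p65 peak, the strongest CRTC2 locus, and the 5 highest-scored pathway promoters) were chosen with earlier results of these data known. Counting functions were tested on simulated data in 7 checks, all passed. Alternatives covered promoter and window extents, an 8-fold minimum, equal list lengths, other tag scalings, co-binding rules and motif windows. Python 3.11.15, pandas 2.3.3, scipy 1.17.1 and pysam 0.24.0 were used.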

Additional observations from a re-analysis of the deposited data

Results flagged for a closer look

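The ratio of FSK to control and that of FSK plus TNFα to TNFα alone lay on opposite sides of 1 for CRTC2 at 2 promoters and for H3AcK27 over 1 gene. At the Irs2 promoter the CRTC2 log2 ratio was 2.09 for FSK over control and -0.62 for FSK and TNFα over TNFα, and at the Slc2a1 promoter it was 1.15 and -0.54. The 95% counting intervals of the ratio to TNFα alone, 0.39 to 1.09 at Irs2 and 0.40 to 1.17 at Slc2a1, include no difference, and as a share of tags in listed peaks these ratios were 0.98 and 1.04. Such opposite signs were found at 73.5% of the 1477 CRTC2 loci called in all 4 lists, so that they are not particular to these promoters. H3AcK27 over Slc2a1 gave -0.018 and 0.038, both close to no difference. With 1 library per group these differences were not tested.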

How the results depend on the processing

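Of 262 recomputed values, 195 stayed within their limits, 60 moved beyond them and 7 turned direction. The limit was 1.5 times for counts and a 95% counting interval for ratios. That interval came from the scores for CRTC2 and from the tags for H3AcK27. CRTC2 promoter counts stayed between 2 and 6 of 8 under every promoter extent, and p65 promoter counts stayed at 0. At equal list length the CRTC2 counts were 2 without treatment, 4 after FSK, 4 after TNFα and 3 after both. At 8-fold over input they were 2, 4, 5 and 4 in the same order. At 8-fold over input, H3AcK27 promoters after both agents numbered 3, and window regions 31 without treatment, 21 after FSK, 29 after TNFα and 18 after both. With equal list lengths, genes with a CRTC2 peak in the window numbered 4 after both agents, and CRTC2 window peaks numbered 13, 16 and 11 in treated lists. No p65 peak was left (0 genes and 0 peaks in each list). That followed from the cut, which kept 214 peaks of each p65 list. The best-ranked p65 peak near these genes stood at place 471 by score. A 20 kb window gave 1 gene with p65 for TNFα, 3 p65 peaks after both, 3, 11, 15 and 9 CRTC2 peaks, and 42, 33 and 34 H3AcK27 regions (control, FSK, TNFα). A 100 kb window gave 1 p65 peak at 1 gene after FSK, 5 p65 peaks after TNFα, 31 CRTC2 peaks after both and 89 H3AcK27 regions after TNFα. Peaks nearest to the gene itself numbered 3, 12, 16 and 10 for CRTC2 and 36 (FSK) and 39 (TNFα) for H3AcK27. What lay behind each of the other shifts was not tested.

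As a share of tags in listed peaks, Irs2 promoter CRTC2 ratios to control were 1.37, 1.16 and 1.13 (FSK, TNFα, both), those of Slc2a1 turned to 0.71, 0.46 and 0.48, and Slc2a1 after both over TNFα to 1.04. H3AcK27 over Slc2a1 after FSK turned to 1.32 on that scale and 1.39 per covered kb, and over Pik3r1 after FSK to 1.14 per covered kb. Pik3r1 was no longer at or below 0.5 as a share of tags in listed peaks (0.53 after FSK, 0.51 after both). The alternatives per counted position, per covered kb and the degenerate consensus were chosen after seeing the data. Subtracting input changed no direction. No paired analysis was possible because each group held 1 library.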
